A study of Mus musculus with 8 samples.

Results

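The 9 genes described here define the regulatory and endocrine output of the Sertoli cell, and were followed through adult mouse testis RNA. They are the transcription factor genes Sox9, Wt1, Gata4 and Gata1, the hormone receptor gene Fshr, the homeobox gene Rhox5, and the secreted products Amh, Inha and Inhbb. The 9 genes were chosen by name and matched by Ensembl identifier, and all 9 were among the 56748 identifiers of the count table and among the 21805 genes tested. In the file they are ENSMUSG00000000567 (Sox9, chromosome 11), ENSMUSG00000016458 (Wt1, chromosome 2), ENSMUSG00000021944 (Gata4, chromosome 14), ENSMUSG00000031162 (Gata1, X chromosome), ENSMUSG00000032937 (Fshr, chromosome 17), ENSMUSG00000095180 (Rhox5, X chromosome), ENSMUSG00000035262 (Amh, chromosome 10), ENSMUSG00000032968 (Inha, chromosome 1) and ENSMUSG00000037035 (Inhbb, chromosome 1). RNA sequencing covered whole adult testis in 4 libraries labelled Ak9 knockout (Ak9-/-) and 4 labelled wild type (WT). AK9 belongs to the adenylate kinases, enzymes that pass phosphate between adenine nucleotides, and the study asks about sperm motility and fertility. The labels name no strain, exact age or deleted part of Ak9, and do not say whether each library came from its own animal. The p-values therefore measure only library-to-library spread, part of which may be technical.

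Sertoli cells are the somatic cells of the seminiferous tubule. They surround and feed the germ cells, form the blood-testis barrier and pass the signal of follicle-stimulating hormone (FSH) on to spermatogenesis. SOX9 sets Sertoli fate in the fetal gonad and stays present in the adult cell, WT1 and GATA4 maintain that identity, and inhibin B, made of an alpha and a beta-B subunit, reports back to the pituitary and lowers FSH release. In a whole testis, Sertoli RNA is diluted by germ cell RNA, so a Sertoli gene can differ between libraries because the cell's share differs, and fewer cells of a type cannot be told apart from less RNA per cell.

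The libraries held 18062780 to 24415587 counts. Levels are CPM, counts scaled to library size after TMM adjustment. Fold changes are on the log2 scale and positive where labelled knockouts are higher. Ak9 itself had 69.3, 116, 101 and 40.6 CPM in labelled knockouts 1-4, against 107 to 122 CPM in the wild types, so the transcript of labelled knockout 2 was at a wild-type level and the labels alone define the groups. Labelled knockout 3 stood apart. Its scores (mean log2 difference from the wild-type mean) were -0.81 for round and -0.83 for elongating spermatid genes, while the other labelled knockouts had 0.24 to 0.33 and 0.11 to 0.45. It also held 185 CPM of the epididymal gene Crisp1, and labelled knockout 4 held 24.4 CPM, against at most 0.534 CPM in the other libraries. The epididymal gene Adam7 was at 26.2 and 4.20 CPM in labelled knockouts 3 and 4, against at most 0.180 CPM in the other libraries. Other epididymal markers did not follow. Rnase10 was lowest in labelled knockout 3, at 3.11 CPM, and the remaining ones had at most 0.444 CPM there. The group comparisons are therefore also given without labelled knockout 3.

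Sertoli content was read from 15 other Sertoli genes that are not among the 9: Clu, Cldn11, Kitl, Dhh, Gdnf, Shbg, Cst9, Cst12, Aard, Rhox8, Mro, Trf, Sox8, Defb19 and Slc38a5. They include secreted proteins (Clu, Trf, Shbg), a tight junction protein of the blood-testis barrier (Cldn11) and growth factors for germ and Leydig cells (Kitl, Gdnf, Dhh). All 15 were above the count filter, and each had reads in every library of both groups. The fewest were for Gdnf, with 22 to 54 in labelled knockouts and 21 to 47 in wild types. The Sertoli marker index, the mean log2 difference of these genes from the wild-type mean, was -0.39, -0.30, 0.31 and -0.60 in labelled knockouts 1-4, against -0.07, 0.12, -0.06 and 0.02 in wild types 1-4. By this mean, labelled knockouts 1, 2 and 4 lay below every wild type and labelled knockout 3 above every wild type. Labelled knockout 2 held Cst9 at -2.03, and the 4 markers Shbg, Trf, Cst9 and Kitl had log2 fold changes of -0.76, -0.53, -0.52 and -0.50, while the median of the 15 was -0.09. The group means differed by -0.25 (two-sided exact permutation p = 0.257, n = 4 per group, smallest possible 0.0286). The difference was -0.158 with the index from summed CPM (exact permutation p = 0.371) and -0.164 with the median over markers (exact permutation p = 0.429). Without labelled knockout 3 the difference was -0.44 (exact permutation p = 0.0286, the smallest that 7 libraries allow), and without labelled knockout 4 it was -0.13 (exact permutation p = 0.514). The difference thus depends on which labelled knockout is left out, and labelled knockout 3, low in spermatid genes, was the one above the wild types.

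Per kilobase of merged exon, Inha had the highest and Fshr the lowest level of the 9 in both groups. In labelled knockouts the order was Inha, Rhox5, Gata4, Inhbb, Wt1, Sox9, Gata1, Amh and Fshr, with means of 78.6 ± 32.7 CPM per kb for Inha, 21.7 ± 5.88 for Rhox5 and 1.67 ± 0.849 for Fshr (SD, n = 4). In wild types the same genes had 85.9 ± 5.92, 22.5 ± 1.29 and 1.72 ± 0.203 CPM per kb (SD, n = 4). The wild-type order was the same except that Gata1 (6.13 ± 0.948 CPM per kb) stood above Sox9 (5.37 ± 0.532), while in labelled knockouts Sox9 (7.47 ± 1.21) stood above Gata1 (5.97 ± 2.15). Ranges of neighbours overlapped in labelled knockouts for all neighbouring pairs except Inha with Rhox5 and Gata1 with Amh. In wild types they overlapped only for Gata4 with Inhbb, Gata1 with Sox9 and Amh with Fshr. The spread between libraries was larger in labelled knockouts for each of the 9 genes, with coefficients of variation of CPM from 16.2% for Sox9 to 50.9% for Fshr, against 2.65% for Gata4 to 15.6% for Amh in wild types.

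**Figure D1:**
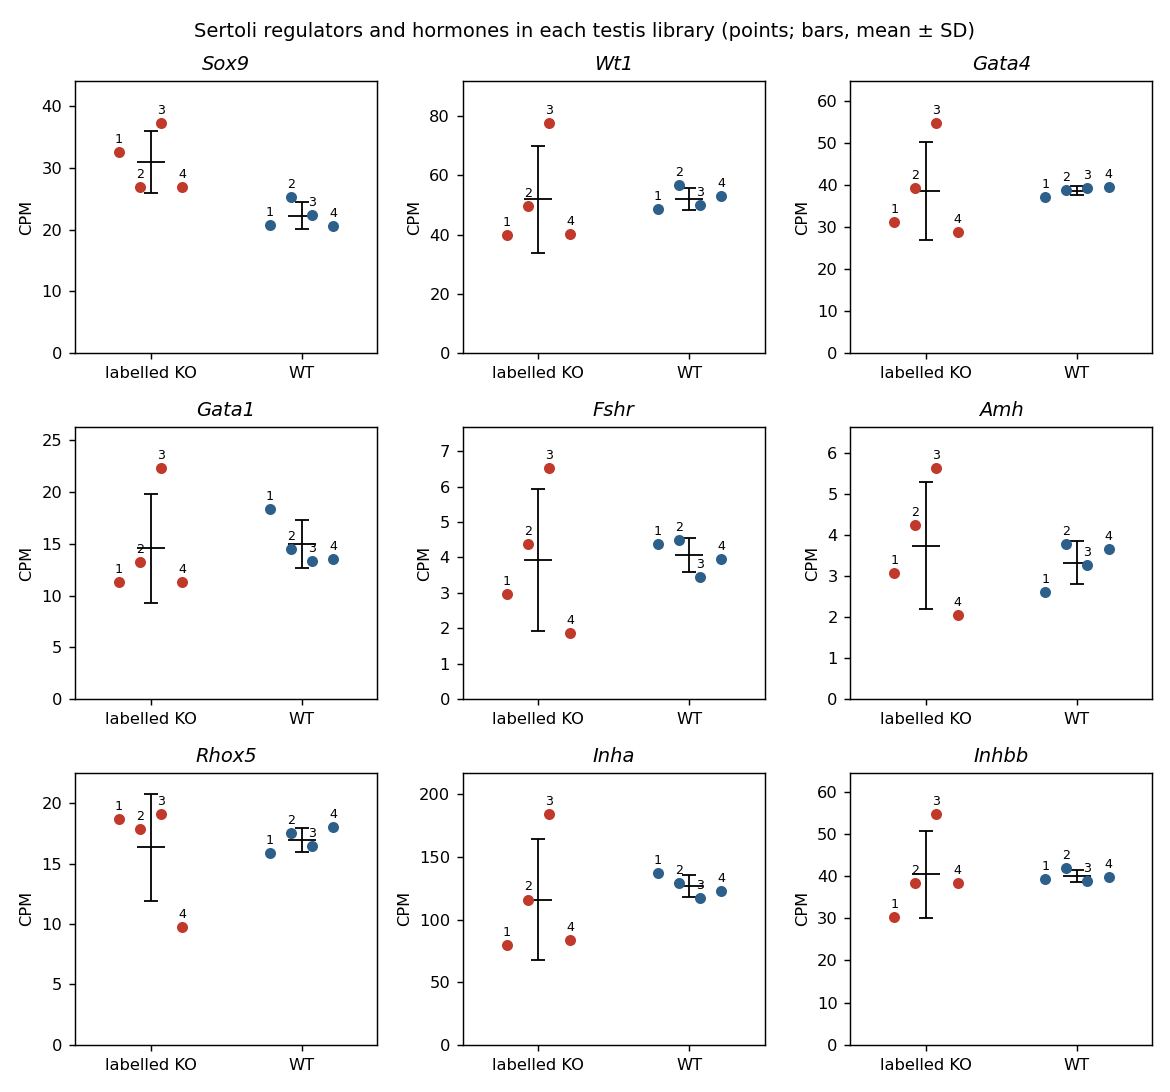
Level of each of the 9 Sertoli genes in CPM (y axis) in the 4 labelled knockouts (left, red) and 4 wild types (right, blue). Points are libraries numbered as in the labels, and bars give the mean ± SD. Labelled knockout 3 was the highest of all libraries in every panel, and Sox9 was the gene whose groups did not overlap.

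Sox9 encodes the HMG-box factor at the head of Sertoli differentiation. It had 32.5, 26.9, 37.3 and 26.9 CPM in labelled knockouts 1-4, against 20.7, 25.3, 22.4 and 20.5 CPM in wild types 1-4. Every labelled knockout was above every wild type. Its log2 fold change was 0.48 (SE 0.13, 95% interval 0.18 to 0.77), and it did not pass edgeR's quasi-likelihood test over all genes (adjusted p = 1.00, unadjusted p = 0.0045, rank 90 of 21805). DESeq2 gave an adjusted p of 0.360. Of the 9 members 0 passed with edgeR, DESeq2 or limma-voom, where 0.0183% of all tested genes passed with edgeR, 0.211% with DESeq2 and 0.0183% with limma-voom. At an unadjusted p under 0.05 edgeR gave 1 member, Sox9 as higher, where 3.04% of all tested genes had such a p, 1.25% as higher and 1.79% as lower. Sox9 was also the 1 member of 9 whose groups did not overlap, where 2.3% of all tested genes had groups that did not overlap. A count of 1 in 9 is too small to set apart from these shares, and Sox9 was singled out with earlier results of these data known. Without labelled knockout 3 the log2 fold change of Sox9 was 0.36 (SE 0.11).

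Wt1, the zinc finger factor that maintains the Sertoli state, had 39.7, 49.7, 77.7 and 40.1 CPM in labelled knockouts 1-4, against 48.5, 56.6, 49.8 and 53.0 CPM in wild types 1-4. Gata4, a zinc finger factor of Sertoli and Leydig cells, had 31.3, 39.4, 54.9 and 28.9 CPM in labelled knockouts and 37.3, 38.7, 39.4 and 39.5 CPM in wild types. Both genes were low in labelled knockouts 1 and 4 and high in labelled knockout 3, and the group means lay close together. The log2 fold change was 0.00 for Wt1 (95% interval -0.43 to 0.42) and 0.00 for Gata4 (95% interval -0.39 to 0.39). The Gata4 to Wt1 ratio of CPM was 0.752 ± 0.0447 in labelled knockouts and 0.747 ± 0.0457 in wild types (SD, n = 4), and its groups overlapped.

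Gata1 is best known as the master factor of red cells and mast cells, and in the mouse testis it is a Sertoli gene. It had 11.4, 13.3, 22.3 and 11.3 CPM in labelled knockouts 1-4, against 18.3, 14.5, 13.4 and 13.5 CPM in wild types 1-4. The highest library was again labelled knockout 3, and the groups overlapped (log2 fold change -0.04, 95% interval -0.52 to 0.45). The Gata1 to Gata4 ratio was 0.374 ± 0.0308 in labelled knockouts and 0.388 ± 0.0714 in wild types. Of the 9 erythroid markers 6 were above the count filter, and the summed level of all 9 was 33.5 to 43.8 CPM in labelled knockouts and 32.8 to 38.0 CPM in wild types. Klf1, a red cell factor, was at 0.466 to 1.04 CPM in labelled knockouts and 0.688 to 1.02 CPM in wild types. Alas2, the highest of the 9 erythroid markers, was at 16.8 to 22.3 CPM in labelled knockouts and 18.1 to 20.4 CPM in wild types. Of the 5 mast cell markers 1, Hdc, was above the filter. Hdc was at 25.96 to 29.91 CPM in labelled knockouts and 26.65 to 29.18 CPM in wild types. Fcer1a had 0 counts in all libraries but wild type 4. The part of red cells and mast cells in the Gata1 level was not tested.

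Fshr encodes the G protein-coupled receptor through which FSH raises cyclic AMP in Sertoli cells. It had 2.98, 4.39, 6.51 and 1.87 CPM in labelled knockouts 1-4, against 4.38, 4.49, 3.44 and 3.95 CPM in wild types 1-4. Labelled knockout 3 was above and labelled knockouts 1 and 4 below all wild types. The 4 labelled knockouts held 66, 91, 132 and 32 reads of the gene and the wild types 79 to 100, so counting error is larger here than for the factors above (log2 fold change -0.04, 95% interval -0.74 to 0.66).

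Rhox5, also known as Pem, is an X-linked homeobox gene that responds to androgen in Sertoli cells. It had 18.7, 17.9, 19.1 and 9.74 CPM in labelled knockouts 1-4, against 15.9, 17.6, 16.5 and 18.0 CPM in wild types 1-4. Labelled knockout 4 stood alone at the low end, and the other labelled knockouts lay at or just above the wild-type range. The group means did not differ past the test (log2 fold change -0.05, 95% interval -0.47 to 0.37). Rhox8, of the same homeobox family, had 41.8 CPM in labelled knockout 3, and the Rhox5 to Rhox8 ratio was 0.704, 0.503, 0.456 and 0.380 in labelled knockouts 1-4 and 0.529 to 0.559 in wild types. The labelled knockouts lay on both sides of the narrow wild-type range.

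The promoters of Fshr and Rhox5 are shown because, of the 5 members with a RefSeq window, Fshr had the highest and Rhox5 the lowest value in labelled knockout 3, at 0.67 and 0.17 above the wild-type mean (log2). The windows, on GRCm38.p6 and covering the 250 bases before the annotated start, were matched for Gata1, Fshr, Rhox5, Inha and Inhbb. The Fshr window is chr17:89200676-89200925 (minus strand) and the Rhox5 window chrX:37754358-37754607 (plus strand), both 5′ to 3′, with motif matches in capitals:
Fshr: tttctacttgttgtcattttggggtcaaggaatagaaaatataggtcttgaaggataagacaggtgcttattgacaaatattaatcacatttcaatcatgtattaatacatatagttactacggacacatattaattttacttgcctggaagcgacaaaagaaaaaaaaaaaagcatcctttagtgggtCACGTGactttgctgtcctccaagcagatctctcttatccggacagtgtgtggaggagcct
Rhox5: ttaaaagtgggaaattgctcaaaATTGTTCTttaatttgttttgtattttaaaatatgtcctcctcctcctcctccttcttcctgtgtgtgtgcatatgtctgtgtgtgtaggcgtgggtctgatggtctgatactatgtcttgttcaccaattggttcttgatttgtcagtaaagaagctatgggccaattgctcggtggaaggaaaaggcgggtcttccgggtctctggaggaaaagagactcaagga
The capitals in Fshr mark the E-box CACGTG, which reads alike on both strands and begins 61 bases before the start. This motif occurs in 6.02% of the 32851 promoter windows. Those in Rhox5 mark TGTTCT, a part of a steroid receptor element and not a whole one, found in 16.1% of windows. It overlaps AACAAT, a SOX-type motif read on the other strand and found in 9.42%. The other motifs were searched on both strands and had no match in the 5 windows. For GATA factors these were AGATAA, held by 9.99% of all windows, and, as a variant of it with another first base, TGATAA, held by 7.94%. The further SOX motif ACAAAG is held by 16.5% of windows. For the nuclear receptor NR5A1 the motif was AAGGTCA, held by 4.08% of windows. The full cyclic AMP response element TGACGTCA is held by 1.55% of windows. Its shorter core TGACG is held by 17.8%. A match describes letters only.

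Amh encodes anti-Müllerian hormone, which the immature Sertoli cell makes in quantity and the adult cell at a low level. It had 3.07, 4.25, 5.62 and 2.04 CPM in labelled knockouts 1-4, against 2.62, 3.77, 3.28 and 3.65 CPM in wild types 1-4, from 35 to 114 reads in labelled knockouts and 49 to 84 in wild types. The groups overlapped (log2 fold change 0.17, 95% interval -0.46 to 0.80). Amh lies on chromosome 10 in GENCODE M21, as does Ak9.

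Inha, the alpha subunit shared by the inhibins, had the highest level of the 9. It had 79.7, 116, 184 and 83.9 CPM in labelled knockouts 1-4, against 138, 129, 117 and 123 CPM in wild types 1-4. Labelled knockouts 1, 2 and 4 were below every wild type and labelled knockout 3 above every wild type, as in the Sertoli marker index (log2 fold change -0.13, 95% interval -0.63 to 0.38). Inhbb, the beta-B subunit that completes inhibin B and by itself forms activin B, had 30.2, 38.4, 54.7 and 38.4 CPM in labelled knockouts 1-4, against 39.3, 42.0, 38.9 and 39.7 CPM in wild types 1-4. Labelled knockouts 2 and 4 were just below the wild types and labelled knockout 1 was the lowest (log2 fold change 0.02, 95% interval -0.33 to 0.36). The Inhbb to Inha ratio was 0.380, 0.331, 0.297 and 0.457 in labelled knockouts 1-4 and 0.286 to 0.332 in wild types, highest in labelled knockouts 4 and 1.

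Most of the 9 genes varied with the Sertoli marker index from library to library. All 9 of 9 had their highest level in labelled knockout 3, as did 27.8% of all tested genes, and 8 of 9 had their lowest in labelled knockout 1 or 4, as did 37.5% of all. Dividing each library by its Sertoli marker index narrowed the spread over the 8 libraries for 8 of the 9 genes, against 26% of all tested genes. The SD of log2 levels was 0.13 after division and 0.30 before for Wt1, 0.14 and 0.27 for Gata4, 0.17 and 0.39 for Inha, 0.20 and 0.33 for Gata1, and 0.29 and 0.51 for Fshr. It was 0.29 and 0.43 for Amh, 0.25 and 0.31 for Rhox5, and 0.20 and 0.23 for Inhbb. For Sox9 the spread widened, with an SD of 0.42 after division and 0.30 before. Narrowing was not particular to Sertoli genes. The SD was 0.43 after and 0.53 before for the Leydig gene Star, and 0.15 and 0.36 for the spermatogonial gene Sall4. It widened for Acta2 of peritubular myoid cells, at 0.38 and 0.33. These SDs are a description, since the 8 libraries share 1 scaling.

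**Figure D2:**
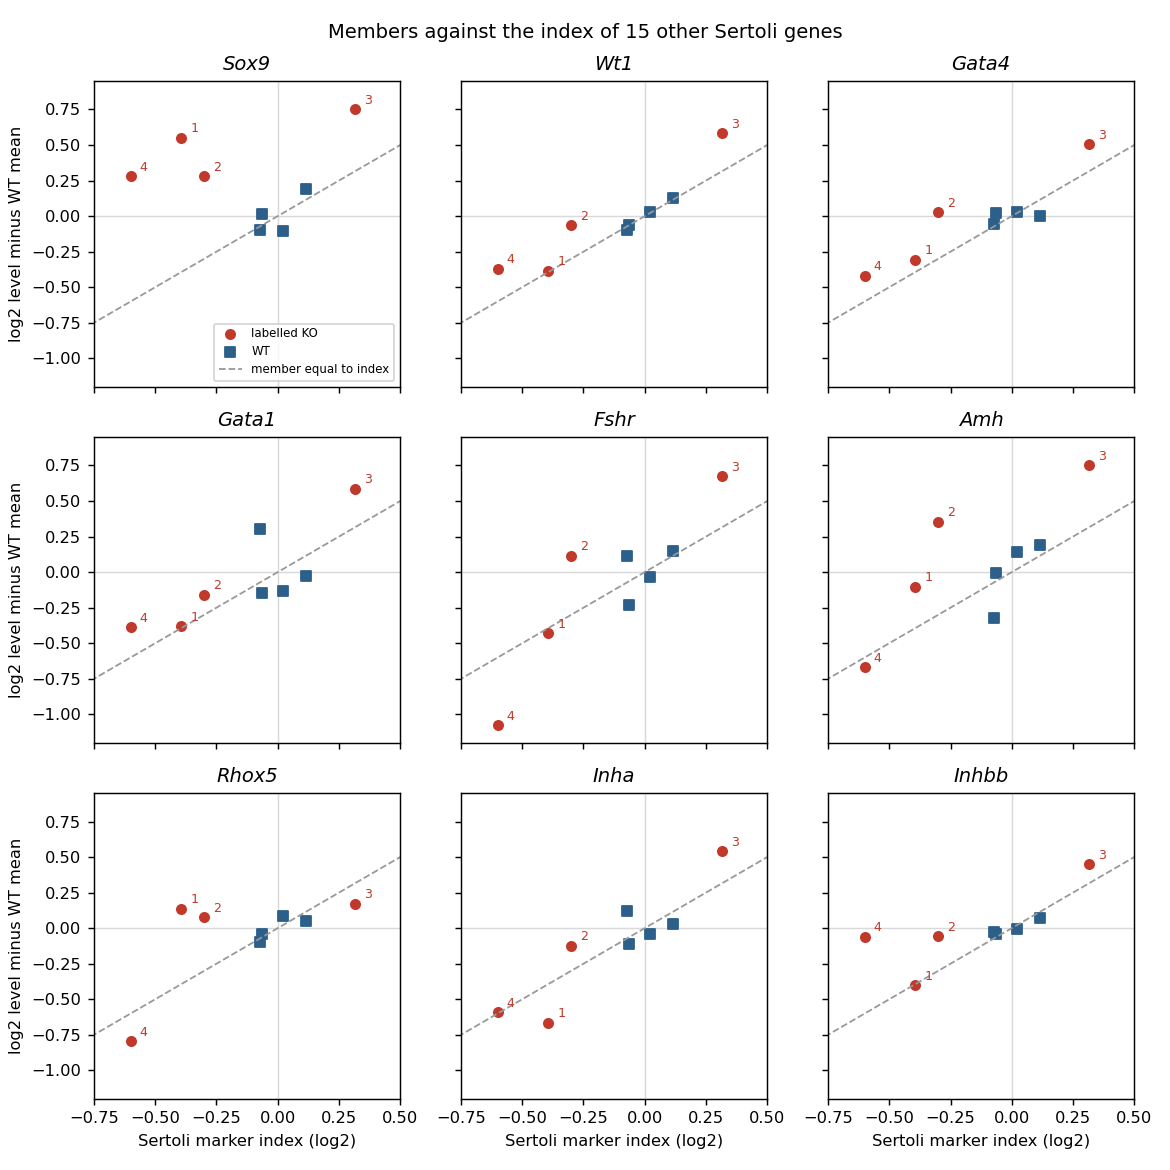
Each of the 9 genes (y axis, log2 level minus the wild-type mean) against the Sertoli marker index of 15 other Sertoli genes (x axis, log2), with 4 labelled knockouts as numbered red circles and 4 wild types as blue squares. The dashed line marks a gene that differs exactly as the index does. Wt1, Gata4 and Inha lie near the line, and Rhox5 lies below it in labelled knockouts 3 and 4. Sox9 lies above it in all labelled knockouts, by 0.44 to 0.94. Wt1, Gata4 and Gata1 also lie above it in all labelled knockouts, by 0.01 to 0.33.

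Departure from the index was then measured per library as the log2 level minus the index. For Sox9 it was 0.94, 0.58, 0.44 and 0.88 in labelled knockouts 1-4, against -0.03, 0.07, 0.08 and -0.13 in wild types 1-4. The values were highest in labelled knockouts 1 and 4, whose index was the lowest, while the Sox9 level itself was highest in labelled knockout 3. For Wt1 it was 0.01, 0.24, 0.27 and 0.23 in labelled knockouts 1-4, within 0.03 of 0 in the wild types. Fshr, with 32 reads in labelled knockout 4, was below the index there at -0.48, and Inhbb was above it at 0.54. The index was -0.60 in that library, and Inhbb itself lay at -0.06 from the wild-type mean, so its value mostly reflects the low index. Rhox5 was at 0.53 and 0.38 in labelled knockouts 1 and 2 and at -0.14 and -0.19 in labelled knockouts 3 and 4.

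With library sizes scaled by the index, the median log2 fold change of all tested genes moved to 0.28, against 0.01 without this scaling, so scaled values are given relative to that median. Sox9 was then 0.44 above the median of all genes, and the other 8 lay between -0.24 for Inha and 0.07 for Amh. The 15 Sertoli markers ranged from -0.90 for Shbg to 0.07 for Sox8 on the same scale (median -0.16), and Sox9 lay above that range. These markers set the scaling, so their place mostly below the median of all genes follows from it. The share of all genes above the range was not counted, so lying above it does not set Sox9 apart. Before the median was taken off, Sox9 had a scaled log2 fold change of 0.72 (SE 0.16, 95% interval 0.38 to 1.07, edgeR adjusted p = 0.532, rank 21 of 21805). Of the 9 members 0 passed this test, where 0.0138% of all tested genes passed. Sox9 alone of the 9 had an unadjusted p under 0.05 here, as did 4.39% of all genes, 4.06% as higher. Sox9 was the 1 member with scaled groups that did not overlap, where 3.3% of all tested genes had such groups, 2.96% as higher. This was not particular to Sox9 among Sertoli genes. Of the 15 markers, Cldn11, Aard, Rhox8 and Sox8 were also higher without overlap after scaling, and Shbg was lower without overlap. Sox8 (as higher) and Shbg (as lower) had an edgeR unadjusted p of 0.024 and 0.032 there.

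Without labelled knockout 3, 8 of the 9 genes had a log2 fold change below 0, as did 51.8% of all genes tested, and Sox9 was the exception. Inha was at -0.45 (SE 0.13), Gata1 at -0.33 (SE 0.14), Wt1 at -0.28 (SE 0.10) and Gata4 at -0.23 (SE 0.11). In the 7 libraries 0 of the 9 members passed edgeR's adjusted threshold, where 0.158% of genes did. Inha, Wt1 and Gata1 had an unadjusted p under 0.05 as lower, and Sox9 as higher, where 19% of all genes had an unadjusted p under 0.05, 9% as lower and 10% as higher. In the same 7 libraries the scaled fit called Sox9 higher (scaled log2 fold change 0.81, SE 0.12, edgeR adjusted p = 0.00529). That fit called 44.7% of all genes, 44.4% as higher, with a median of 0.43 over all genes, and Sox9 was 0.38 above this median.

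**Figure D3:**
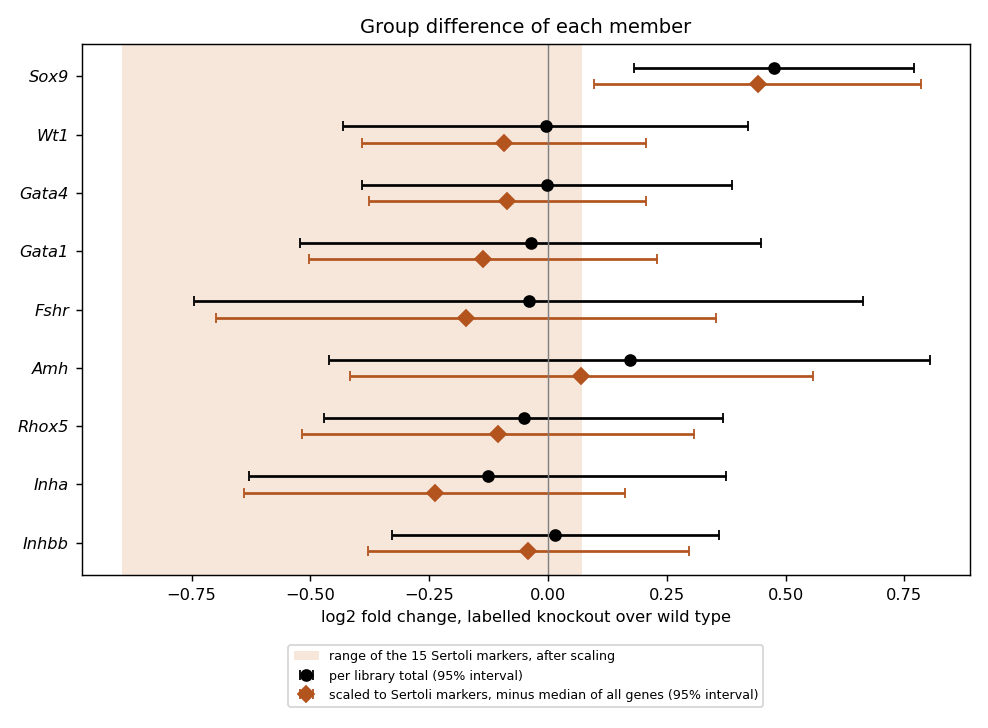
Group difference of each of the 9 genes as log2 fold change, labelled knockout over wild type (x axis), with 95% intervals. Black circles use library totals, and brown diamonds use libraries scaled to the Sertoli markers, minus the median of all genes. The shaded band is the range of the 15 Sertoli markers after scaling, -0.90 to 0.07. Sox9 lies to the right of the band and the other members within it or at its edge. The markers of the band set the scaling, and the share of all genes to its right was not counted.

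Direct ratios between Sertoli genes, chosen after their values were seen, were compared without any index. The Sox9 to Wt1 ratio of CPM was 0.818, 0.542, 0.480 and 0.670 in labelled knockouts 1-4, against 0.427, 0.446, 0.449 and 0.387 in wild types 1-4. Its groups did not overlap, and 0.376% of all tested genes were likewise higher without overlap relative to Wt1. Against Sox8, the close relative of Sox9 that acts with it in Sertoli cells, the ratio was 2.23, 1.74, 1.52 and 1.77 in labelled knockouts, against 1.42, 1.47, 1.51 and 1.22 in wild types. The lowest labelled knockout lay just above the highest wild type, and 0.165% of all genes were higher without overlap relative to Sox8.

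**Figure D4:**
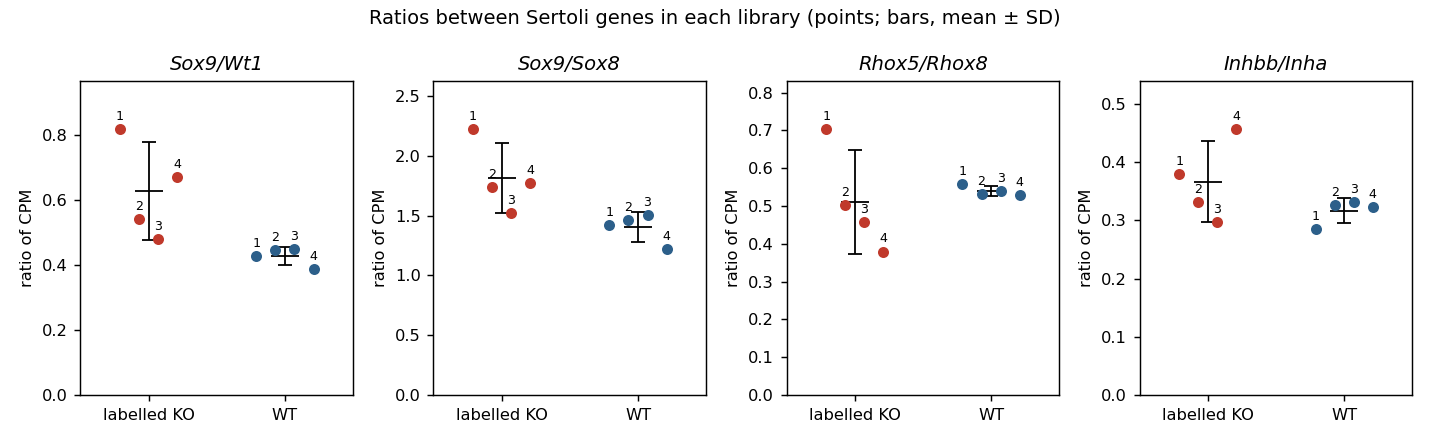
Ratios of CPM between pairs of Sertoli genes (y axis) in the 4 labelled knockouts (left, red) and the 4 wild types (right, blue), with points for numbered libraries and bars for the mean ± SD. The Sox9 to Wt1 and Sox9 to Sox8 ratios did not overlap between groups, while the labelled knockouts spread around the wild-type range for Rhox5 to Rhox8 and extended above it for Inhbb to Inha.

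Genes with the most similar pattern to each member were taken by Pearson correlation of log2 CPM over the 8 libraries, among 11393 genes with at least 5 CPM. They share library and scaling with the member, and labelled knockout 3 was the highest library for all 9 members. Wt1 was nearest to Ppp1r9a (r = 0.999), Gata4 to Ltbr (0.996), Gata1 to Ttyh2 (0.996), Inha to Bahd1 (0.991), Inhbb to Lactb (0.991), Amh to Nop56 (0.993) and Fshr to Cycs (0.993). Rhox5 was nearest to Hmga1b (0.981). Sox9 was nearest to Vamp4 (0.971), Zc3h8 (0.949) and Mxi1 (0.947). The median r with the other 8 members was 0.86 for Wt1 and for Gata4, 0.89 for Inha and 0.21 for Sox9. The rest lay between, at 0.85 for Fshr, 0.82 for Gata1, 0.75 for Amh, 0.74 for Inhbb and 0.50 for Rhox5. Without labelled knockout 3 the median r was 0.73 for Wt1 and for Gata4, 0.80 for Inha and -0.63 for Sox9. It was then 0.79 for Fshr, 0.58 for Amh, 0.57 for Gata1, 0.46 for Rhox5 and 0.45 for Inhbb. These r values include the difference between the groups. Without labelled knockout 3 that difference was above 0 for Sox9 and below 0 for the other 8.

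In the wider gonadal and hormone pathways 0 genes passed edgeR's adjusted threshold, where 0.0183% of all tested genes did, and 1, Cyp19a1, had an unadjusted p under 0.05, where 3.04% did. Of 14 other gonadal transcription regulators, all tested, 4 were above and 10 below 0 (median -0.07, against 0.01 for all tested genes). The one with the smallest p was Zfpm2, a GATA4 cofactor also called Fog2, at 13.9, 14.1, 13.5 and 14.6 CPM in labelled knockouts 1-4, against 16.8, 17.8, 16.4 and 15.05 CPM in wild types 1-4. The log2 fold change was -0.23 (SE 0.11). Its groups did not overlap, as for 1.32% of all tested genes that were lower. Sox3 (-0.23, SE 0.21) and Sox10 (-0.26, SE 0.23) followed. Of the 6 genes of the ovarian side of sex determination 3 passed the count filter. Foxl2, its leading factor, had 0 or 1 counts in labelled knockouts and 0 to 5 in wild types. Cyp19a1, the aromatase that makes oestrogen, was at 7.73 ± 0.760 CPM in labelled knockouts and 9.75 ± 1.29 CPM in wild types (SD, n = 4), a log2 fold change of -0.34 (SE 0.15).

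Among 19 tested of 22 genes of inhibin, activin and AMH signalling, 8 were above and 11 below 0, with a median of -0.09. Amhr2, the AMH receptor, was highest in labelled knockout 3, at 216, 223, 333 and 215 CPM in labelled knockouts 1-4 and 216 to 253 CPM in wild types. Inhba, the beta-A subunit, had under 1 CPM on average in both groups. Acvr1c, an activin-type receptor (-0.60, SE 0.39), Smad9, a signal transducer of the bone morphogenetic branch (0.38, SE 0.27), and Fstl3, which binds activin (-0.24, SE 0.18), had the smallest p of the list. Of 15 genes that carry FSH receptor signals 5 were above and 10 below 0 (median -0.02), led by Prkar1a (0.15, SE 0.10) and Prkaca (0.11, SE 0.11), subunits of protein kinase A, and Adcy3, an adenylate cyclase (-0.20, SE 0.17). Of 7 androgen-responsive Sertoli genes 5 were above and 2 below 0 (median 0.02).

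Sox9 is also a gene of rete testis and duct epithelium, so markers of those cells were read beside it. Of 6 such markers 3 passed the count filter, and the summed level of all 6 was 47.7 to 54.4 CPM in labelled knockouts and 45.2 to 52.1 CPM in wild types. Most of that sum was Epcam, which spermatogonia also express. Krt8 was at 9.02, 4.20, 9.28 and 7.35 CPM in labelled knockouts 1-4 and 5.43 to 6.95 CPM in wild types. The log2 level of Krt8 minus the index was 0.92, -0.26, 0.25 and 0.83 in labelled knockouts 1-4, beside 0.94, 0.58, 0.44 and 0.88 for Sox9. It was -0.21, -0.34, 0.56 and -0.12 for Krt19, and 0.44, 0.41, -0.24 and 0.61 for Epcam. These values include the index itself, which was -0.39, -0.30, 0.31 and -0.60 in labelled knockouts 1-4. Pax8 had 0, 0, 22 and 1 counts in labelled knockouts 1-4, and 14, 1, 0 and 4 counts in wild types 1-4. The 8 epididymal markers summed to 4.25 to 215 CPM in labelled knockouts and 5.38 to 7.80 CPM in wild types. In the highest sum, that of labelled knockout 3, Crisp1 held 185 CPM and Adam7 26.2 CPM. The share of any duct tissue in the Sox9 level was not tested. Wt1 is expressed in the mesothelium that covers the testis. Of its 4 markers Msln was at 0.270, 0, 0.543 and 0.175 CPM in labelled knockouts 1-4, against 0.534, 0.629, 1.21 and 2.35 CPM in wild types 1-4 (log2 fold change -2.22, SE 0.69). Msln rests on 6, 0, 11 and 3 reads in labelled knockouts 1-4. The log2 fold change was -1.26 (SE 0.58) for Upk3b and -0.05 (SE 0.17) for Muc16, and 1 of the 4 markers was above 0. The summed level of the 4 was 30.5 to 40.2 CPM in labelled knockouts and 34.7 to 42.0 CPM in wild types. Most of that sum was Muc16, and the part of mesothelium in the Wt1 level was not tested. Leydig cells also express Gata4 and Inha. Their markers had 8 of 8 genes below 0 (median -0.34, against 0.01 for all tested genes), with summed levels of 917 to 2029 CPM in labelled knockouts and 1837 to 2149 CPM in wild types, and their part in the levels of Gata4 and Inha was not tested. Among them Hsd3b1, a steroidogenic enzyme, had 44.2, 72.6, 58.1 and 43.8 CPM in labelled knockouts 1-4, against 111, 105, 93.6 and 82.7 CPM in wild types 1-4. Its edgeR adjusted p was 0.382 and its DESeq2 adjusted p 0.0051 (log2 fold change -0.85, SE 0.17).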

How the data were processed

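Adult testis RNA was sequenced in 8 libraries, grouped by their titles into 4 labelled Ak9 knockouts and 4 wild types. TRIzol extraction and DNase treatment came before a TruSeq RNA kit, per the labels' protocols. The deposited values are raw counts per Ensembl gene, whole numbers with no normalization. The submitters' processing notes name STAR, featureCounts, Trimmomatic and DESeq2, with the builds GRCm39 and mm39. No source used here states tool versions or the strand setting.

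Symbols were matched for 52073 identifiers, and 4675 had none. Low counts were removed with filterByExpr (minimum count 10, minimum total 15), libraries were scaled by TMM, and groups were compared with edgeR 4.0.16 (quasi-likelihood test, limma 3.58.1, R 4.3.3), with Benjamini-Hochberg adjustment over all 21805 tested genes and a threshold of 0.05. SE was taken as |log2 fold change| over the root of the F statistic. For the scaled comparison each effective library size was multiplied by 2 to the power of the Sertoli marker index. Log2 levels used a prior count of 2. A count of 0 allows up to 0.123 to 0.166 CPM, taking 3 counts as the 95% limit, which covers counting error only. Within a group, libraries differed by a chi-square of at least 4.52 per gene, so none was a copy of another.

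The 9 members and all lists were chosen with earlier results of these data known. Genes named are the members, Ak9, the 3 genes most like each member, the 15 markers, and the 3 genes of smallest p in a list. Crisp1, Adam7, Klf1, Alas2, Fcer1a, Pax8, Foxl2, Inhba, Amhr2 and Hsd3b1, taken from those lists, and the ratios were chosen after their values were seen. The alternatives covered other tools (DESeq2 1.42.0 and limma-voom), RLE scaling, filters (none, or a 1 CPM mean), the replicate block, other forms of the index, and leaving out each library in turn. The fits were tested on simulated data. GENCODE M21 (GRCm38, not the authors' build) gave exon lengths, chromosomes and overlaps, and there none of the 9 genes overlapped another gene.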

Additional observations from a re-analysis of the deposited data

Results flagged for a closer look

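In 10 of 164 groups of 4 libraries examined among the named genes, the index and the ratios, 1 library lay far from the other 3, and chance alone gives about 1 in 20. Among the 9 members this concerned Rhox5, at 9.74 CPM in labelled knockout 4 against 17.9 to 19.1 CPM in the other labelled knockouts. Labelled knockout 3 stood high for the Sertoli markers Mro (63.6 CPM, others 29.0 to 31.6) and Sox8 (24.5 CPM, others 14.6 to 15.5). It also stood high for Fstl3 (7.20 CPM, others 4.51 to 4.96), Adcy3 (11.99 CPM, others 7.80 to 8.44) and Krt19 (1.43 CPM, others 0.408 to 0.451), and low for the sperm membrane gene Izumo1 (40.1 CPM, others 89.9 to 98.7). Labelled knockout 2 stood high for Cnn1 at 8.35 CPM. Wild type 3 stood low for Cst12 at 83.4 CPM and high for Pecam1 at 2.51 CPM.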

How the results depend on the processing

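No member passed the adjusted threshold under any alternative of the unscaled comparison, and in the scaled comparison Sox9 passed in 1 setting, without labelled knockout 3. Sox9 stayed above 0 under every alternative run. The count of all genes called, 4, was 26 with no low-count filter and 46 with DESeq2. In the scaled comparison it was 3, and 14 with no low-count filter. Leaving out 1 library at a time gave 3 to 35 genes, and 2 to 9897 genes with scaling. The count was 33, 35 and 33 without labelled knockouts 1, 3 and 4, and 11, 9897 and 21 with scaling. The lowest and highest counts of members called were 0 and 0 unscaled, and 0 and 1 scaled. The Sertoli marker index difference ranged from -0.44 without labelled knockout 3 to -0.13 without labelled knockout 4. Signs near 0 turned. Inhbb was at -0.016 with the replicate block and -0.019 with limma-voom. Scaled Inha was at -0.046 with the index from summed CPM and -0.041 with its median. With 1 library left out, log2 fold changes ran from -0.28 to 0.10 for Wt1, -0.23 to 0.11 for Gata4, -0.33 to 0.075 for Gata1, -0.40 to 0.19 for Fshr, -0.10 to 0.37 for Amh, -0.14 to 0.13 for Rhox5, -0.45 to 0.016 for Inha and -0.18 to 0.13 for Inhbb. Scaled values ran from -0.0096 to 0.26 for Fshr, -0.021 to 0.14 for Inha and 0.64 to 0.81 for Sox9. The cause of these changes was not tested. Same-numbered libraries deviated together little (r = 0.09, 0.04, -0.03 and 0.03), and own number was best for 1 and 2 alone. A pairing by number was thus not seen, but these few libraries cannot exclude one. With the replicate block 4 genes were called, and 4 with scaling. Fshr and Amh rest on the fewest reads, 32 and 35 in labelled knockout 4.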

Other observations

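Among the 15 markers of the index itself, the largest differences were on the lower side, opposite to Sox9. Kitl, the ligand of the germ cell receptor KIT, had 22.2, 22.2, 30.9 and 24.4 CPM in labelled knockouts 1-4, against 32.0, 40.8, 35.5 and 32.6 CPM in wild types 1-4, and its groups did not overlap, as for 1.32% of all tested genes as lower (log2 fold change -0.50, SE 0.13, edgeR adjusted p = 0.948). Shbg, which encodes the androgen-binding protein, had 9.56, 10.4, 15.9 and 3.73 CPM in labelled knockouts, against 19.1, 18.5, 14.2 and 15.7 CPM in wild types (log2 fold change -0.76, SE 0.32). Cst9, a cystatin gene, was at 22.6 CPM in labelled knockout 2, against 86.9 to 102 CPM in wild types, while the other labelled knockouts held 61.2 to 107 CPM. Trf, the transferrin that carries iron to germ cells, was at 24.2 ± 8.46 CPM in labelled knockouts and 35.0 ± 9.16 CPM in wild types (SD, n = 4 per group). With edgeR 0 of the 15 markers passed the adjusted threshold, and 2, Kitl and Shbg, had an unadjusted p under 0.05 as lower, where 0.0183% of all tested genes passed and 1.79% had such a p as lower.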
